A study of Rattus norvegicus with 9 samples.

Results

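Kidney RNA from hypertensive animals treated with the herbal preparation Qingda granule was compared with kidney RNA from hypertensive animals left untreated. The labels call the treated group QDG and the untreated group Model, with 3 libraries in each, 6 of the 9 libraries in the series. The other 3 libraries, WT, came from animals labelled normal. They entered the estimate of spread and are shown for reference. Animals of every group were 6 weeks old, and hypertension was common to both groups compared. The sources used here do not give the strain, the origin of the hypertension, the dose or the length of treatment. Nor do they say whether each library came from its own animal, so the p-values below measure the spread between these samples only, and that spread may be technical. Any difference in handling between the groups cannot be told apart from the granule. Of 17862 features in the files, the 12187 whose mean over the 9 libraries reached 1 FPKM were compared. No listed value was 0, so features without reads in even 1 library are absent and were not compared. FPKM scales the reads of a feature to its length and to the size of the library, so it is a level per length.

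The kidney filters blood and returns most of the filtrate through tubule cells, whose transport draws on mitochondrial energy. Sustained high blood pressure injures glomeruli, tubules and vessels. ERK is a kinase that relays growth and stress signals, and RSK1 is a kinase that ERK activates. The title of the series ties the granule to these kinases and to the protection of mitochondria, and the comparison of QDG with Model asks which transcripts differ with treatment. RNA came from whole tissue, so fewer cells of a type and less RNA per cell cannot be told apart.

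The files give 17553 features a mouse Ensembl identifier, although the labels name the rat, and mark the other 309 as new features with a running number. They do not pair identifiers with gene names. A table of 47357 rat genes was at hand, but it holds 0 Ensembl identifiers. The 40 gene lists drawn up for the comparison (841 symbols, among them mitochondrial, ERK and RSK, blood pressure and kidney cell type genes) therefore matched 0 features. No feature could be assigned a function, pathway or cell type, and the labelled tissue was not checked against kidney markers. Features are described by their values, length and abundance, and identifiers are given for 4 of them.

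Whole reads were recovered from the steps in the values. They summed over the listed features to 28.3 M to 29.4 M in Model, 28.1 M to 28.7 M in QDG and 26.7 M to 28.2 M in WT. The library size by which the values had been divided was not a whole number in these files, and it was not the read sum. It stood at 0.978, 1.061 and 0.938 of that sum in Model 1, 2 and 3, at 1.003, 1.043 and 1.006 in QDG 1, 2 and 3, and at 0.959 to 1.112 in WT. Factors computed here by the trimmed mean of M values (TMM), a scaling that centres the bulk of features, were 0.976, 1.042 and 0.936 in Model and 0.990, 1.036 and 0.996 in QDG. The deposited values were thus close to a TMM-like scale, which no source states, and the divisors are not sequencing depths. Libraries within a group differed by more than counting noise in every pair, and the chi-square of their reads, per degree of freedom, was 46.4 to 81.1 in Model and 16 to 36.5 in QDG.

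No feature differed between QDG and Model at an adjusted p under 0.05 (0% of 12187; limma, two-sided, Benjamini-Hochberg adjustment). The lowest adjusted p was 0.0707. At an unadjusted p under 0.05, 520 features were higher in QDG (4.27%) and 1175 were lower (9.64%), against 609 in both directions together that this threshold would give without any difference. All 3 QDG values lay above all 3 Model values for 1265 features (10.4%) and below them for 1988 (16.3%). The median log2 difference, on the log2(FPKM + 1) scale, was −0.02, and the 95% interval of a feature's difference reached a median of 0.29 to either side. A difference of at least 1 on that scale, with an unadjusted p under 0.05, was seen in 10 features higher and 10 lower. That limit is 2-fold in FPKM + 1, so at low levels it asks for more than 2-fold in FPKM. The recovered reads, tested with limma's voom weights, also gave 0 calls, with 786 higher and 958 lower under median-ratio scaling and 715 higher and 847 lower under scaling by the read sum. Leaving out 1 library moved the 520 higher and 1175 lower features unevenly. Without Model 3 there were 373 higher and 626 lower, without QDG 2 there were 265 and 581, and without QDG 3 there were 245 and 557. Without Model 1, Model 2 and QDG 1 in turn, 625, 460 and 436 were higher and 1150, 1127 and 1166 lower. The intervals of these fits were wider, at a median of 0.32 to 0.35 to either side. Leaving out 1 library gave 3 calls without Model 1, and 1 call each without WT 3, Model 3 or QDG 2. A p that misses the threshold does not show that the groups were alike.

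The feature with the smallest p was lower in QDG. ENSMUSG00000056749, 2026 bases long by the recovered length, stood at 4.63, 5.20 and 4.43 FPKM in Model 1, 2 and 3 and at 1.39, 1.25 and 1.67 FPKM in QDG 1, 2 and 3. All QDG libraries lay below all Model libraries, and also below or near the WT libraries, at 2.67, 2.66 and 1.59 FPKM. Group means were 4.75 ± 0.397 FPKM in Model and 1.44 ± 0.216 FPKM in QDG (SD, n = 3). The log2 difference of QDG from Model was −1.24 with an SE of 0.15 and a 95% interval of −1.56 to −0.92 (limma adjusted p = 0.0707). Each of the 6 libraries held 74 to 316 reads for it. It passed the threshold under 2 of 20 alternatives, in a fit of the Model and QDG libraries alone (limma adjusted p = 0.0338) and without WT 3 (limma adjusted p = 0.00839), and its adjusted p ranged up to 0.309.

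ENSMUSG00000026971, 7111 bases long, came next among the lower features. It stood at 13.7, 15.3 and 13.0 FPKM in Model and at 8.58, 8.81 and 8.71 FPKM in QDG. The QDG libraries were close together and lay between Model and the WT libraries, which stood at 5.34, 6.00 and 6.10 FPKM. It differed by −0.63 on the log2 scale (SE 0.10), with a 95% interval of −0.84 to −0.42 (limma adjusted p = 0.156), on 1753 to 3273 reads a library. It passed the threshold under 0 of 21 alternatives (limma adjusted p 0.0982 to 0.582).

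Of the features higher in QDG, ENSMUSG00000055805 had the smallest p. This feature of 4886 bases stood at 9.54, 8.88 and 9.11 FPKM in Model and at 15.2, 15.9 and 18.7 FPKM in QDG. The Model libraries were the lowest of the 9 and the QDG libraries the highest, with WT between them at 12.9, 13.9 and 10.9 FPKM. It differed by 0.78 on the log2 scale (SE 0.11), with a 95% interval of 0.53 to 1.04 (limma adjusted p = 0.156), on 1194 to 2584 reads a library. Its log2 difference was 0.70 to 0.89 over 21 alternatives, of which 0 gave a call.

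ENSMUSG00000002346, of 5996 bases, stood at 11, 10.9 and 14.3 FPKM in Model and at 20.8, 20.8 and 25.4 FPKM in QDG. Here the QDG libraries stood apart from both other groups, since WT held 11.6, 14.2 and 14.3 FPKM, within or near the range of Model. QDG differed from Model by 0.84 on the log2 scale (SE 0.14), with a 95% interval of 0.53 to 1.15 (limma adjusted p = 0.165), on 1900 to 4311 reads a library.

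**Figure D1:**
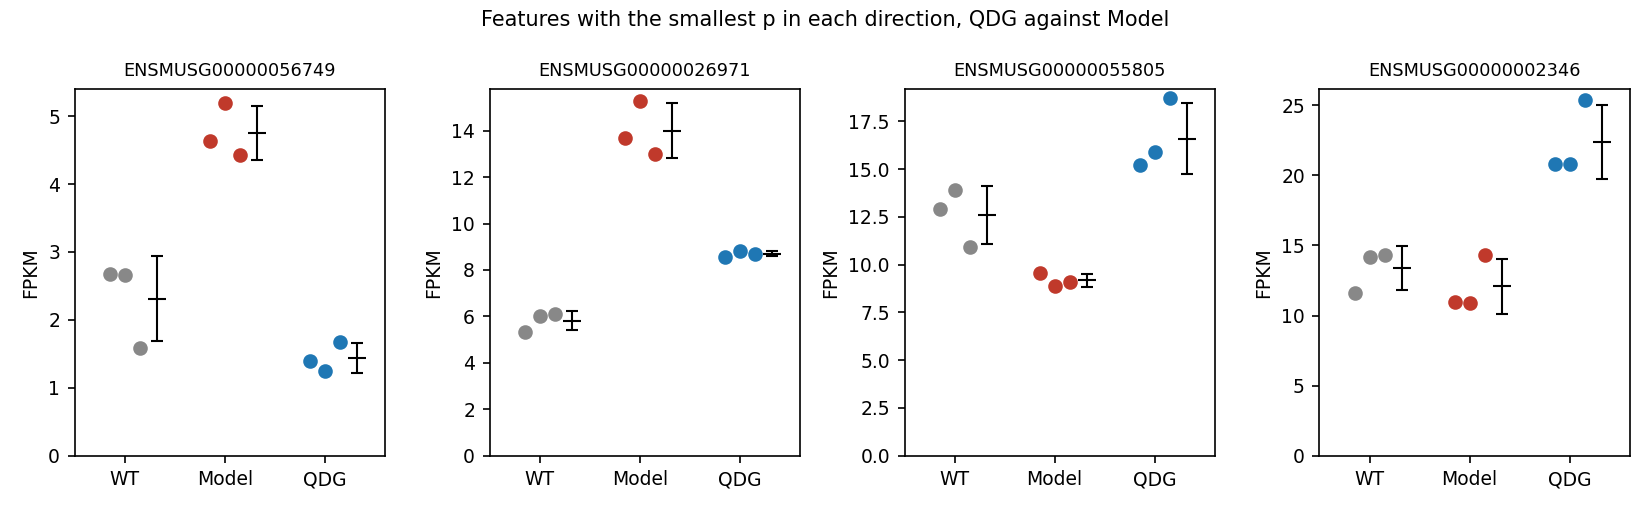
FPKM of the 4 identified features in each library, with points for single libraries, the mean and SD of 3 libraries as a bar beside them, and the groups WT, Model and QDG along the horizontal axis. All QDG points lie below all Model points for ENSMUSG00000056749 and ENSMUSG00000026971 and above them for ENSMUSG00000055805 and ENSMUSG00000002346.

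Features with an unadjusted p under 0.05, groups that did not overlap and 1 direction under 5 scalings (the deposited one, quantile normalization, removal of the length trend, and recovered reads scaled by median ratio or by their sum) numbered 450 higher (3.69%) and 1031 lower (8.46%). The direction of these features was fixed by that choice, so it is given as a description. Those higher in QDG were long and scarce, with a median length of 5815 bases and a median mean of 3.58 FPKM. Those lower were short and more abundant, with medians of 1882 bases and 14.8 FPKM, against 3858 bases and 5.81 FPKM over all 12187. The median log2 difference was 0.36 among the higher and −0.39 among the lower.

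The first 15 by p among the higher had log2 differences of 0.48 to 1.42 (limma adjusted p 0.156 to 0.279), with lengths of 71 to 9608 bases and mean levels of 1.09 to 237 FPKM. The first 15 among the lower had log2 differences of −1.24 to −0.54 (limma adjusted p 0.0707 to 0.265), with lengths of 471 to 7111 bases and mean levels of 1.53 to 239 FPKM. Both sets spanned short and long, scarce and abundant features. They were chosen for this difference, so the sets are shown as values only.

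Among the lower features, the most abundant of the 15 was the eighth by p, of 6596 bases. It stood at 400 FPKM, 311 FPKM and 377 FPKM in Model 1, 2 and 3 and at 200, 220 and 212 FPKM in QDG 1, 2 and 3. WT held 126, 159 and 148 FPKM, so QDG lay between the other groups without overlap. The seventh, of 1484 bases, had the same order, at 96.8, 91.5 and 108 FPKM in Model, 66.5, 62.5 and 56.1 FPKM in QDG, and 35.3, 32.5 and 37.9 FPKM in WT. The fifth, of 3524 bases, had another order, at 18.2, 28.1 and 29.8 FPKM in Model and 11.6, 10.6 and 12.2 FPKM in QDG. Its QDG values lay below those of WT as well, which were 22.0, 20.8 and 24.1 FPKM, and it passed the threshold when Model 1 was left out. The fourth, of 471 bases, likewise stood lower in QDG (11.5, 11 and 8.02 FPKM) than in Model (22.7, 20.6 and 24.7 FPKM) and in WT (19.8, 13.5 and 19.9 FPKM).

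Among the higher features, the largest log2 difference of the 15 was that of the eleventh by p, of 2993 bases. It stood at 11.9, 12.1 and 30.3 FPKM in Model and at 49.7, 43.6 and 43.2 FPKM in QDG, which is 1.42 on the log2 scale (limma adjusted p = 0.265). Model 3 alone stood near the WT libraries, at 29.6, 22.9 and 32.5 FPKM, and the feature passed the threshold when Model 3 was left out. The seventh, of 1525 bases, was lowest in WT at 2.5, 2.07 and 2.88 FPKM, higher in Model at 7.27, 8.20 and 4.91 FPKM, and highest in QDG at 19.1, 11.4 and 15 FPKM in QDG. The sixth, of 71 bases, had Model lowest, at 141, 153 and 153 FPKM, with QDG at 229, 233 and 303 FPKM and WT at 332, 278 and 314 FPKM. The third, of 2694 bases, was highest in QDG (12.2, 11.1 and 11.6 FPKM) and overlapped between Model (5.65, 2.67 and 4.36 FPKM) and WT (3.30, 5.98 and 5.26 FPKM). These features thus had no single order of the 3 groups. Comparisons of these groups share libraries, so the values are only set side by side.

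**Figure D2:**
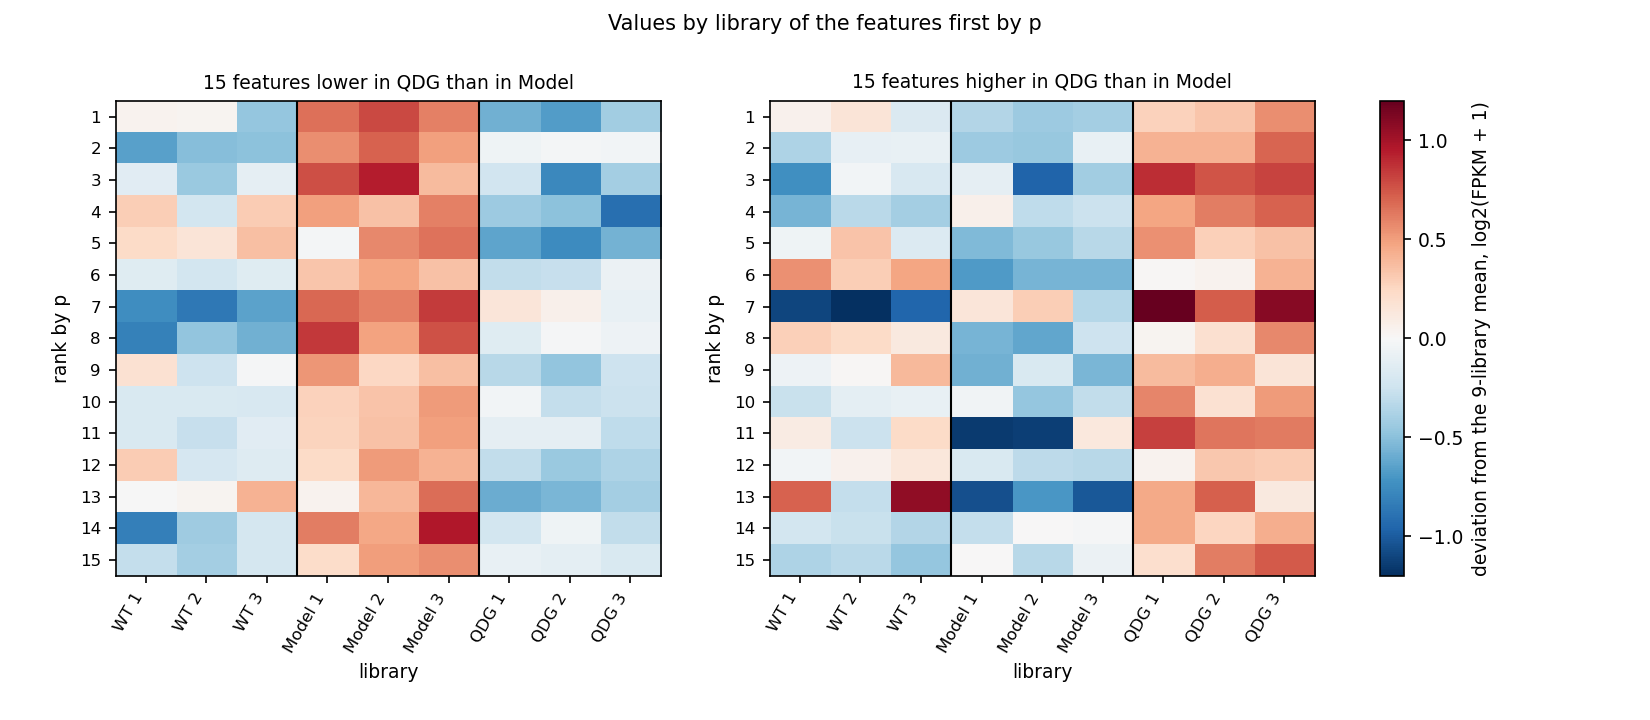
Deviation of log2(FPKM + 1) in each library (columns) from the mean of the 9 libraries, for the 15 features with the smallest p in each direction (rows, ranked by p), red above and blue below the mean. The features were chosen for the difference between Model and QDG, to whose spread and ranking the WT libraries also contributed. In most rows, and more often among the lower features, the WT columns stand on the QDG side of Model. Both differences share the Model libraries used in the choice, so this is a description only.

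The balance of directions depended on the scaling. On the deposited values 30.7% of the features with an unadjusted p under 0.05 were higher in QDG. That share was 39.6% after median-ratio scaling of FPKM (659 higher, 1005 lower), 47.5% after quantile normalization (683 and 755) and 49.6% after removal of each library's trend with feature length (651 and 661). With recovered reads it was 45.1% under median-ratio scaling and 45.8% under scaling by the read sum. All of these gave 0 calls. An unadjusted p under 0.05 in the same direction under the 5 scalings of the rule above was seen for 341 features higher, with a median length of 4532 bases, and 382 lower, with a median length of 2356 bases.

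**Figure D3:**
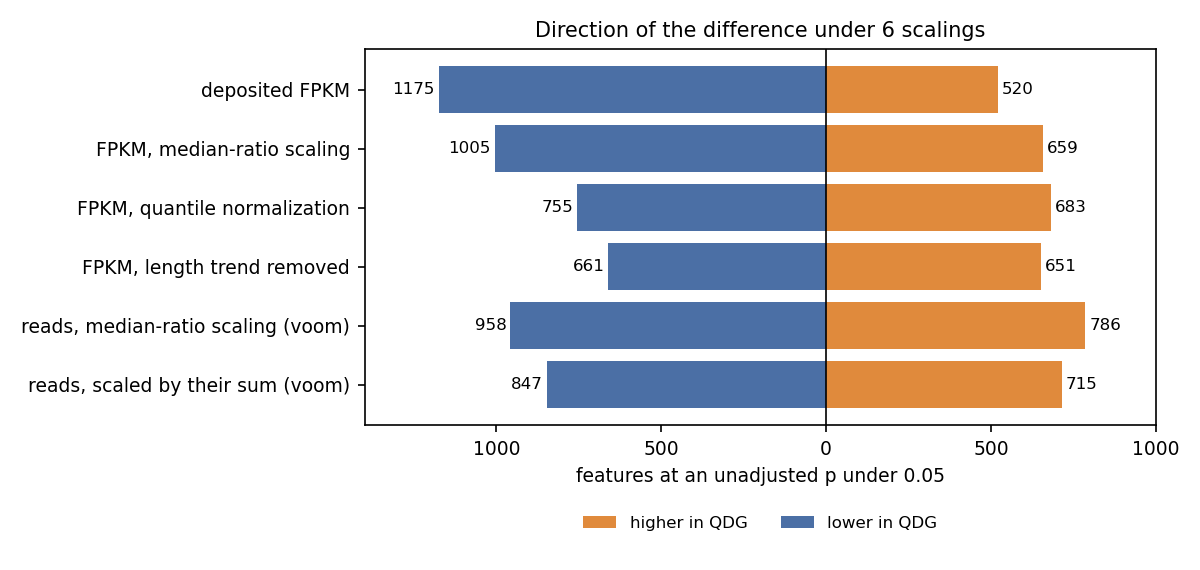
Number of features at an unadjusted p under 0.05 that were higher (orange, to the right) or lower (blue, to the left) in QDG than in Model, for the deposited FPKM and 5 other scalings. Lower features outnumber higher ones by 1175 to 520 on the deposited values and by 661 to 651 once the length trend is removed.

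Short features tended to stand lower in QDG than in Model, and long ones slightly higher. Across the 12187 features, Spearman's rho of the log2 difference with length was 0.45, a description over features that share their libraries. Features under 1000 bases numbered 1189, and at an unadjusted p under 0.05 QDG was higher for 39 of them (3.28%) and lower for 283 (23.8%), with a median log2 difference of −0.22. Of the 1537 of 1000 to under 2000 bases, 31 were higher and 349 lower, with a median of −0.19. The classes of 2000 to under 4000 bases and 4000 to under 6000 bases had medians of −0.07 and 0.01. Among the 3254 features of 6000 bases and over, 233 were higher (7.16%) and 57 lower (1.75%), with a median of 0.09. Removal of the length trend centres each length class by design. After it, the shortest class held 116 higher and 81 lower, and the longest 103 higher and 149 lower. These counts also depended on single libraries. In the longest class the 233 higher and 57 lower became 107 and 39 without Model 3, 87 and 24 without QDG 2, and 84 and 31 without QDG 3. At 1000 to under 2000 bases the 349 lower became 164, 159 and 144 without these libraries in turn, and 193 after quantile normalization, and the 31 higher became 15 without QDG 3. Without Model 1, Model 2 and QDG 1 in turn, 350, 351 and 362 of that class were lower and 44, 21 and 32 higher.

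The trend differed between libraries of one group. For features under 1000 bases, the median deviation from the mean of the 9 libraries, on the log2 scale, was 0.08, 0.12 and 0.28 in Model 1, 2 and 3, and 0.04, −0.13 and −0.10 in QDG 1, 2 and 3. The groups did not overlap, but Model 1 and QDG 1 were close, and Model 3 stood apart at the top. WT libraries stood at 0.03, −0.18 and −0.06. For features of 6000 bases and over the groups overlapped, at −0.01, −0.06 and −0.11 in Model and −0.01, 0.04 and 0.04 in QDG. Without Model 3, rho was 0.33, the median was −0.15 in the shortest class and 0.06 in the longest, and 160 features under 1000 bases were lower in QDG. Leaving out QDG 2 or QDG 3 moved that count about as far, to 192 and 168, with medians of −0.17 and −0.20 and rho of 0.41 and 0.43. Without QDG 1 the trend was not weaker, with 318 lower, a median of −0.26 and rho of 0.47. Without Model 1 and Model 2 there were 293 and 265 lower.

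**Figure D4:**
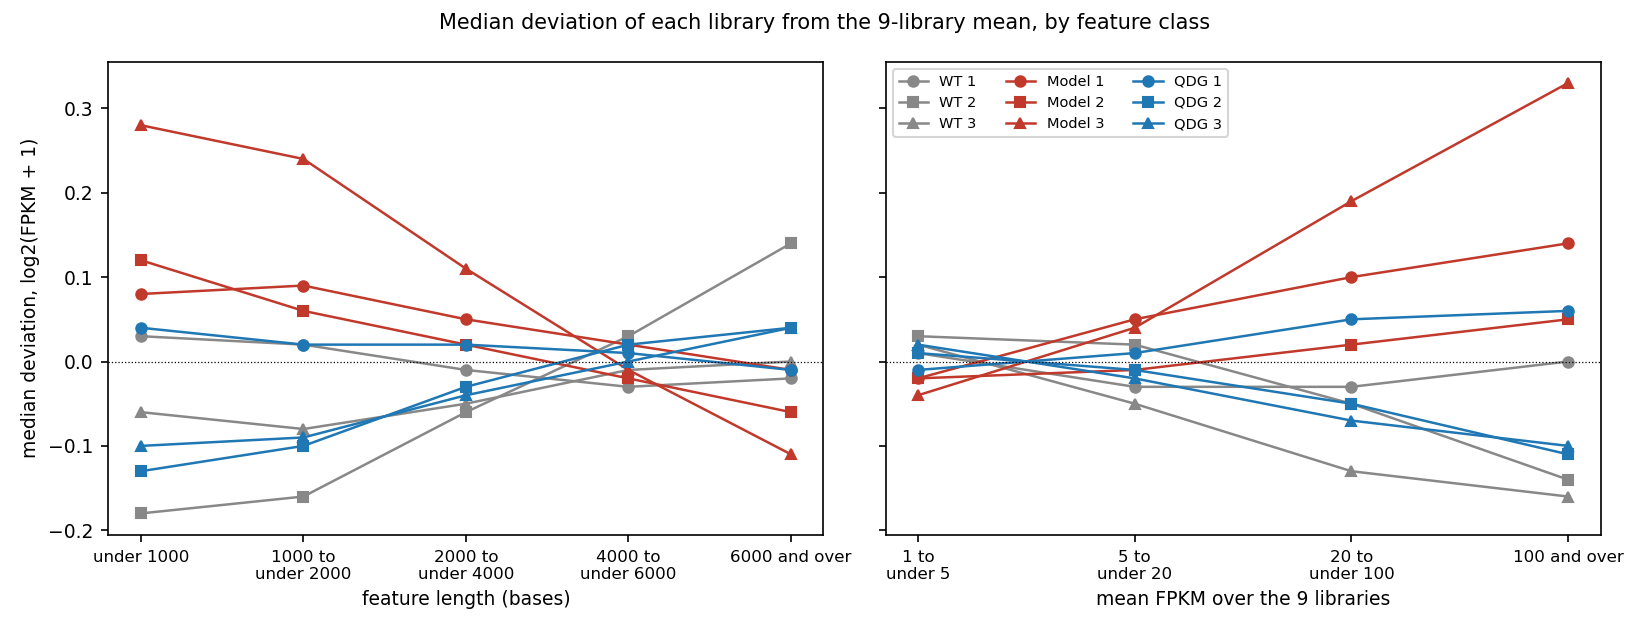
Median deviation of log2(FPKM + 1) from the mean of the 9 libraries, for classes of feature length and of abundance, with 1 point for each library, joined by lines across classes. Model 3 lies highest for features under 1000 bases, at 0.28, and for features of 100 FPKM and over, at 0.33.

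The share of all recovered reads that fell in features under 1000 bases was 6.81%, 6.50% and 8.07% in Model and 6.17%, 5.75% and 6.24% in QDG. Features of 6000 bases and over held 21.4%, 21.1% and 18.6% in Model and 21.6%, 23.0% and 22.2% in QDG. Model 3 was the extreme library of the 6 in both of these classes. Features of 1000 to under 2000 bases held 21.5%, 21.8% and 23.4% in Model and 22.1%, 21.6% and 23.8% in QDG, and the groups overlapped. The part of these read shares in the differences of single features was not tested.

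Abundance went with the same direction. Of the 5521 features at 1 to under 5 FPKM, 318 were higher in QDG and 248 lower, with a median log2 difference of 0.03. At 5 to under 20 FPKM there were 165 higher and 443 lower of 4276, and at 20 to under 100 FPKM 31 higher and 352 lower of 1854. Of the 536 features at 100 FPKM and over, 6 were higher (1.12%) and 132 lower (24.6%), with a median of −0.21. The Model and QDG libraries overlapped in the median deviation of this class, at 0.14, 0.05 and 0.33 in Model and 0.06, −0.11 and −0.10 in QDG. Quantile normalization gives every library the same distribution, so it draws the median of an abundance class towards 0 by design. The median of features at 100 FPKM and over was −0.08 with the length trend removed. It was 0.00 after quantile normalization, where 36 were higher and 32 lower. Without Model 3 it was −0.14, with 11 higher and 43 lower. Without QDG 2 and without QDG 3 it was −0.19 in both cases, and 37 and 41 features were lower, with 3 higher each time. Without Model 1, Model 2 and QDG 1 in turn, 109, 144 and 149 were lower and 5, 2 and 5 higher. The 352 lower features at 20 to under 100 FPKM became 155 without Model 3, 136 without QDG 2 and 133 without QDG 3, and quantile normalization gave 130 lower and 125 higher. At 5 to under 20 FPKM the 443 lower became 242, 240 and 215 without Model 3, QDG 2 and QDG 3, and 285 after quantile normalization, which gave 256 higher. The 165 higher in that class became 82 without QDG 2 and 85 without QDG 3. The 31 higher at 20 to under 100 FPKM became 14 and 16 without those 2 libraries, 17 without Model 2 and 58 without Model 1. The 318 higher at 1 to under 5 FPKM became 211, 166 and 141 without Model 3, QDG 2 and QDG 3 in turn.

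Length and abundance were related across features (Spearman's rho −0.19), so the classes were crossed. The 104 features both under 1000 bases and at 100 FPKM or over had a median log2 difference of −0.41, and 90 of them (86.5%) had lower mean values in QDG. On the deposited values, the median of each abundance class went from below 0 in the shortest features to above 0 in the longest, of which the class at 100 FPKM and over held only 10. With the length trend removed this order was reversed in the scarce features. Their median at 1 to under 5 FPKM was then 0.14, 0.12, 0.06, 0.02 and 0.00 from the shortest class to the longest. At 20 to under 100 FPKM it was then −0.13 in the shortest and −0.03 in the longest, and the 104 short features at 100 FPKM or over stood at −0.18. The trend of each library was fitted over all abundances together. On the deposited values, features under 1000 bases stood at −0.10 at 1 to under 5 FPKM and at −0.22 over all abundances. The reversal in scarce features can therefore arise from the adjustment alone.

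**Figure D5:**
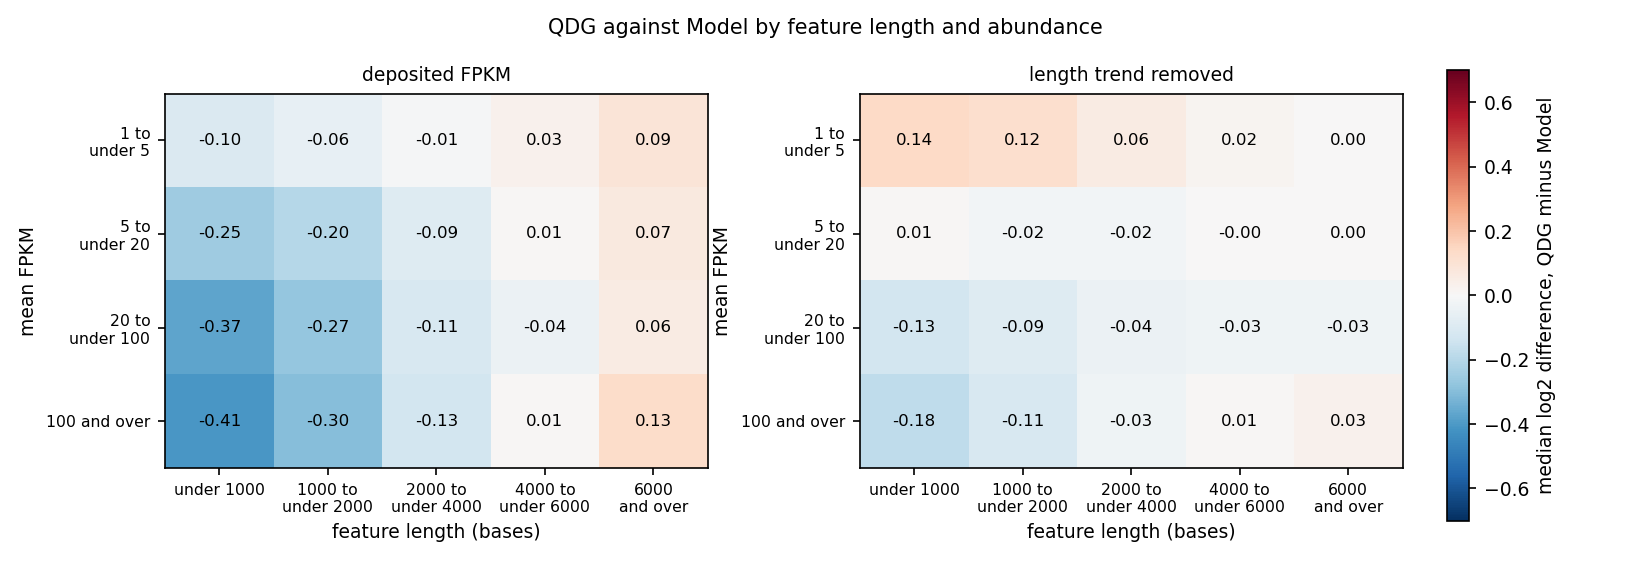
Median log2 difference of QDG from Model in cells of feature length (horizontal) and mean FPKM (vertical), for the deposited values (left) and with the length trend of each library removed (right). The most negative cell on the left, −0.41, holds short abundant features, and it stands at −0.18 on the right.

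The 10 most abundant features gave 0 calls. The most abundant, of 707 bases, stood at 35391, 24636 and 43169 FPKM in Model and 27396, 22942 and 25863 FPKM in QDG, and the groups overlapped. The eighth, of 1824 bases, was higher in QDG, at 4062, 4476 and 6173 FPKM against 2842, 2601 and 2487 FPKM in Model, and WT lay at 8272, 6896 and 5404 FPKM. Its log2 difference was 0.87 (limma adjusted p = 0.281), against the direction of its abundance class. The tenth, of 57 bases, was lower in QDG, at 3946, 4992 and 4813 FPKM against 6470, 6329 and 7721 FPKM in Model, which is −0.58 on the log2 scale (limma adjusted p = 0.316).

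The libraries of QDG were the most alike. The median SD of log2(FPKM + 1) over features was 0.09 in QDG, 0.15 in Model and 0.19 in WT, and with the length trend removed it was 0.09, 0.13 and 0.17. Pearson's r across features was 0.989 to 0.992 between QDG libraries and 0.979 to 0.986 between Model libraries. Between the groups it ran from 0.975 to 0.991, and Model 1 and QDG 1 correlated more closely than any pair of Model libraries.

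The 213 tested features without an Ensembl identifier had a median log2 difference of −0.01, and 14 stood higher (6.57%) and 14 stood lower (6.57%) with an unadjusted p under 0.05, beside 4.27% and 9.64% of all tested features. The 97 tested features under 200 bases had a median of −0.07 and a range of −1.07 to 1.35. At an unadjusted p under 0.05, 8 of these stood higher (8.25%) and 15 stood lower (15.5%), both shares above those of all tested features. In the class under 1000 bases, to which they belong, 3.28% stood higher and 23.8% lower. Their lower share was thus below that of their own length class. Under the stricter rule above, 5 of the 97 were among the 450 higher features (5.15%) and 11 among the 1031 lower (11.3%). The shares over all tested features under that rule were 3.69% and 8.46%.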

How the data were processed

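Ribosomal RNA-depleted kidney RNA was sequenced in 9 libraries, 3 for each of WT, Model and QDG. The authors deposited 1 value per feature and library, taken here as FPKM, that is reads divided by feature length and by a library size. The files name no unit. It was inferred because 99.98% of features moved in steps of whole reads over length and library size (tolerance 0.0001 read or 2e-07 of the value). The 3 most abundant were solved by a search over lengths (tolerance 0.05 read). Per the submitters' processing notes, limma was used. For the aligner, counter, genome build and annotation, nothing is given in the sources used here.

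Features whose mean reached 1 FPKM were transformed as log2(FPKM + 1), which understates differences at low values. One limma model (version 3.58.1, R 4.3.3) with a trend in intensity covered all 9 libraries and was tested on simulated data. Unlike these libraries, the simulated data had the same spread in every group and no length trend. They therefore do not vouch for the p-values here. The contrast of QDG with Model was adjusted over all 12187 features. The length trend was removed per library by a smooth with span 0.3. Python 3.11.15 was used for the rest.

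The comparison, its lists and tests were chosen with earlier results of these data known. The rule for named genes took features with a symbol, groups that did not overlap, an unadjusted p under 0.05 and 1 sign over all scalings, the first 15 by p and the 5 largest in each direction. It also took members of the lists and genes of the ERK and RSK1 pathway. As no symbols were at hand, the symbol requirement was dropped, identifiers are given for the first 2 in each direction, and the lists and pathway genes are not analysed here. Features described by rank among the 15 were picked after their values were seen.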

Additional observations from a re-analysis of the deposited data

How the results depend on the processing

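Over the 21 alternatives, the 0 calls became 1 in a fit of the Model and QDG libraries alone and 0 to 3 when 1 library was left out. The 520 higher features became 856 with no filter on low values, 202 with a minimum mean of 5 FPKM and 786 with voom under median-ratio scaling, and 245 to 673 with 1 library left out. The 1175 lower features became 755 after quantile normalization, 661 with the length trend removed, and 557 to 1383 with 1 library left out. The causes were not tested. Pseudocounts of 0.1 and 0.5 gave 0 calls. The 4 identified features kept their direction under every alternative that tested them, and 6 features in all were called under any.

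With the replicate number as a replicate block, fitted to the Model and QDG libraries, 0 features were called, with 669 higher and 1326 lower, against 750 and 1536 in the same libraries without it. Deviations of same-numbered libraries correlated at −0.08, 0.14 and 0.05, so the numbers were not treated as pairs, and libraries did not all correlate best with their own number.

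The medians of length and abundance classes under other scalings were added after seeing the data. The median of features of 6000 bases and over was 0.15 with voom under the read sum. That of features at 1 to under 5 FPKM was 0.01 to 0.09 over the scalings. The steps do not tell reads from read pairs, and with 3 libraries a group an exact permutation test of 1 feature could not go below p = 0.1.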

Other observations

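Among the listed features, all with reads in every library, 2 had 9 values split by a gap of at least 16-fold. Both had 1 FPKM or more on the high side, and both were chosen after their values were seen. The first, of 4796 bases and without an Ensembl identifier, stood at 11.7 FPKM in Model 1 and at 7.84, 8.33 and 6.49 FPKM in QDG 1, 2 and 3. In WT 1 to 3, Model 2 and Model 3 it stood at 0.0476 FPKM or less, on at most 7 reads, a gap of 137-fold. The libraries of Model thus fell on both sides, and the log2 difference of QDG from Model was 1.84 (limma adjusted p = 0.331). It passed the threshold when Model 1 was left out. The other, of 6243 bases, stood at 5.53 FPKM in Model 2 alone and at 0.0167 to 0.126 FPKM in the other 8 libraries.

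A feature of 380 bases stood at 4.56 and 2.94 FPKM in Model 2 and Model 3, at 0.274 FPKM in Model 1, and at 0.183, 0.0899 and 0.651 FPKM in QDG 1, 2 and 3. It was called when Model 1 was left out. A feature of 1656 bases stood at 3.03, 1.16 and 4.22 FPKM in QDG and at 0.798, 0.644 and 0.788 FPKM in Model, and it was called when QDG 2 was left out.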
